A study of Mus musculus with 4 samples.

Results

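Activating transcription factor 4 (ATF4) drives the gene program of the integrated stress response, and 10 genes of that program were followed here through the states of antigen-specific mouse B cells: Atf4, Ddit3, Ddit4, Sesn2, Eif4ebp1, Asns, Slc3a2, Eprs, Trib3 and Chac1. They are 10 of the 32285 genes in each of the study's mRNA matrices, and all 10 were counted in both. The list was chosen by name with earlier results of these data known, and the values behind the choice are not given in the sources used here. Levels across states are therefore given as a description, and no test below is independent support for the list.

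In the integrated stress response, kinases that sense heme shortage, double-stranded RNA, unfolded protein in the endoplasmic reticulum or uncharged tRNA phosphorylate the initiation factor eIF2. General translation then slows, while the Atf4 mRNA is translated more, so that the amount of Atf4 mRNA is an incomplete measure of the pathway. ATF4 protein binds C/EBP-ATF response elements (CARE) in genes for amino acid uptake, amino acid synthesis and tRNA charging, and in genes that restrain growth. Plasma cells, which secrete large amounts of antibody, have high demands for amino acids and for protein folding.

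The members fall into 4 roles. Atf4 (chr15:80255184-80257541, + strand, GRCm38) and Ddit3 (chr10:127290774-127296288, +) encode transcription factors, the second of them CHOP, which acts downstream of ATF4 in prolonged stress. Ddit4 (chr10:59949669-59951834, −) and Sesn2 (chr4:132492032-132510501, −) encode inhibitors of the growth kinase complex mTORC1, and Eif4ebp1 (chr8:27260329-27276674, +) encodes 4E-BP1, which blocks cap-dependent translation when mTORC1 is low. Asns (chr6:7675169-7693254, −) encodes asparagine synthetase, Slc3a2 (chr19:8706882-8723369, −) the CD98 heavy chain that carries amino acid transporters such as SLC7A5 to the membrane, and Eprs (chr1:185363044-185428360, +) the enzyme that charges glutamyl- and prolyl-tRNA. Trib3 (chr2:152337422-152344032, −) encodes a pseudokinase that feeds back on ATF4, and Chac1 (chr2:119351229-119354381, +) an enzyme that degrades glutathione. All 10 are protein-coding. Ddit3 overlaps Mars and Gm4189 on the opposite strand. On its own strand it overlaps a second Ddit3 ID (chr10:127290829-127293753), which had 0 UMIs in the kept cells. Sesn2 overlaps Gm12981 on its own strand. Reads in parts shared on the same strand may not all be counted for the member.

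The promoters are shown because they carry the element that ATF4 binds. RefSeq gave a promoter (GRCm38.p6, 250 bases before to 50 after the RefSeq start) for 9 of the 10 members, and Eif4ebp1 was not matched. A RefSeq start need not be the gene end given above, which is from GENCODE. For Slc3a2 the RefSeq window (chr19:8713848-8714147) lay inside the gene as placed above. The CARE letters TGATGNAA, searched on both strands, occurred in 3 of the 9 promoters, those of Asns, Chac1 and Trib3, against 1304 of 32851 promoters of the same length (3.97%). The full-length cyclic AMP response element TGACGTCA, which shares the bases TGA with the CARE, occurred in 0 of 9 and in 588 of all promoters (1.79%). The stretches below run 5′ to 3′ on the strand of the gene, with the CARE letters (or their reverse complement) in capitals. In Asns the element lies 23 bases before the RefSeq start (chr6:7693210-7693459, − strand). In Chac1 it lies 193 bases before the RefSeq start, on the reverse strand (chr2:119350992-119351241, + strand). In Trib3 it lies 14 bases after the RefSeq start, on the reverse strand (chr2:152344028-152344057, − strand). By the GENCODE positions above, the Asns element lies inside the gene and the Trib3 element before its start. A match of letters is a description of the sequence and not a measured binding site.
Asns: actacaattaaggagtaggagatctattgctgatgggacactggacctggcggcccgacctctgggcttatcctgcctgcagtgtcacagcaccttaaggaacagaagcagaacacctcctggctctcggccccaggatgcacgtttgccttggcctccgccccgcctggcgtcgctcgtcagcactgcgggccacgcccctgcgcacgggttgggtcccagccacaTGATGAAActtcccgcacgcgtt
Chac1: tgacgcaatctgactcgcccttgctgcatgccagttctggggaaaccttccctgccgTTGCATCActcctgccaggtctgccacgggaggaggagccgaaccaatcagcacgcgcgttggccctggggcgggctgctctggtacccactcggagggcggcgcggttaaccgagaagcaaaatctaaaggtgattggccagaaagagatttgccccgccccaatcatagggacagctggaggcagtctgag
Trib3: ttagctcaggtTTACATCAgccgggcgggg

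The samples came from 6 wild-type CD45.1+ C57BL/6 recipient mice, 3 per group, which had received MD4 B cells, whose receptor transgene recognises hen egg lysozyme (HEL), and were sampled 8 days after immunization with HEL-coupled sheep red blood cells. In every mouse the CD45.1+ transferred cells were Dock8 wt/wt without a BCL2 transgene. The CD45.2+ transferred cells carried a B cell-restricted BCL2 transgene (BCL2.Tg) and were Dock8 wt/wt in the wild-type group and Dock8 cpm/cpm, an ENU-induced null allele of the exchange factor DOCK8, in the DOCK8-deficient group. HEL-binding CD95+ cells were labelled with 1 of 6 hashtag antibodies per mouse and separated by sorting on CD45.1 or CD45.2, and each sort gave 1 mRNA and 1 hashtag library on a droplet platform. Sort, library and BCL2 transgene therefore cannot be told apart, and in the CD45.2+ cells the donor's sex went with the genotype in the study's notes.

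After hashtag assignment and filters, 6488 CD45.2+ and 3204 CD45.1+ cells were kept, with median depths of 6536 and 5274 unique molecular identifiers (UMIs). The CD45.2+ cells of the DOCK8-deficient group numbered 57, 44 and 101 per mouse, so that values in them rest on few counts. Cells were grouped into light zone (LZ), dark zone (DZ), early, activated and memory-like (E/A/M), LZtoPrePC/Memory and plasma cell or plasmablast (PC/PB) classes, the members being left out of the clustering. The first 4 classes are called non-plasma. The B cell markers Cd79a, Cd79b, Ms4a1 and Cd22 were detected in every non-plasma class, and 107 cells with T cell markers were set apart. In the PC/PB cells the summed level of 5 plasma markers (Xbp1, Prdm1, Irf4, Jchain, Sdc1) lay between 27360 and 36000 CPM, the UMIs of a gene per 1000000 UMIs of the same cells. Over the kept cells the members' totals ran from 6802 CD45.2+ and 2476 CD45.1+ UMIs of Atf4 down to 57 and 11 UMIs of Trib3. The values of 1 mouse stood apart: in the CD45.2+ cells of DOCK8-deficient mouse 3, 41 UMIs of Ddit3 came from 23 of 88 non-plasma cells. Levels and tests that rest on this mouse are also given without it, but the correlations are not.

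Across B-cell states, Slc3a2 and Atf4 were higher in PC/PB than in non-plasma cells, and Ddit4 and Sesn2 were lower, in each of the 9 mouse and sort combinations that held at least 10 PC/PB cells. Slc3a2 averaged 124 CPM ± 68.7 (SD, n = 9) in PC/PB and 37.3 ± 6.52 in non-plasma cells, a ratio of 3.33. Atf4 averaged 158 ± 23.4 CPM against 109.5 ± 10.8. The mTORC1 inhibitors went the other way, with Ddit4 at 13.6 ± 6.67 CPM in PC/PB and 55.7 ± 9.32 in non-plasma cells and Sesn2 at 3.99 ± 2.39 and 8.26 ± 2.005. Of 10725 genes measured in these combinations, 8.27% were higher and 55.2% lower in PC/PB in all 9, while of the 9 members measured 2 were higher and 2 lower. Immunoglobulin genes took 31.7% to 35.7% of the UMIs of the 9 PC/PB sums and 1.885% to 5.297% of those of the non-plasma classes. With immunoglobulin counts out of the totals, 13.9% of 10701 genes were higher and 31.1% lower in all 9, and Slc3a2, Atf4 and Eprs were higher and Ddit4 lower. Sesn2 was then lower in 7 of 9 (6.01 ± 3.59 against 8.48 ± 2.07 CPM), and it was also not lower in every combination under the 3-fold hashtag rule, the stricter cell filter or with cells thinned to 2000 UMIs. Clusters were made from the same cells, so these levels are a description with no test.

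The other members varied more between mice or sorts. Ddit3 was higher in PC/PB in 8 of 9 combinations, at 29.7 ± 15.4 against 17.5 ± 2.25 CPM. Eprs was also higher in 8 of 9, at 89.7 ± 17.7 against 74.6 ± 10.9 CPM. Asns and Chac1 were each higher in 5 of 9, at 5.77 ± 5.68 against 3.18 ± 1.56 CPM for Asns and at 4.55 ± 4.65 against 0.704 ± 0.633 CPM for Chac1. Eif4ebp1 averaged 36.4 ± 12.5 against 37.6 ± 6.85 CPM and was higher in 4 of 9. Trib3, the member with the fewest UMIs, averaged 0.952 ± 1.26 against 0.726 ± 0.478 CPM on 30 UMIs in each. Where the 2 sorts were taken apart, the ratio of PC/PB to non-plasma cells was 5.96 in CD45.2+ (n = 3) and 2.09 in CD45.1+ cells (n = 6) for Slc3a2, 2.46 and 1.23 for Ddit3, 4.49 and 0.727 for Asns, and 1.46 and 0.752 for Eif4ebp1. With immunoglobulin counts out of the totals the CD45.1+ ratios turned, to 1.08 for Asns and 1.11 for Eif4ebp1, and Eif4ebp1 was higher in PC/PB in 7 of 9 combinations (54.8 ± 18.9 against 38.6 ± 6.97 CPM).

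**Figure D1:**
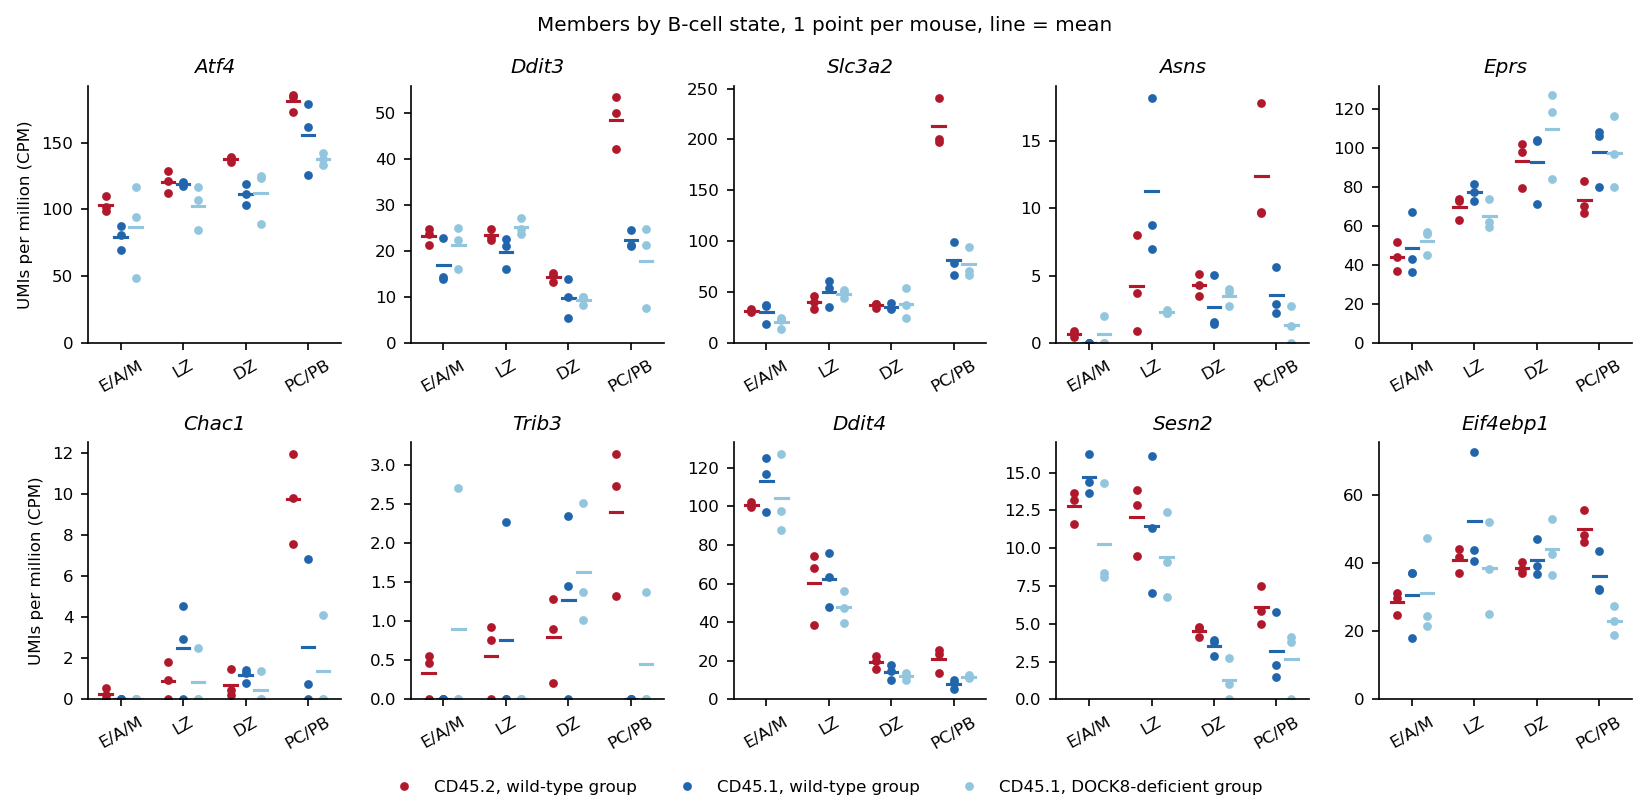
Level of each of the 10 members in CPM ( linear axes from 0) in E/A/M, LZ, DZ and PC/PB cells, 1 point per mouse and a line at the mean, for both sorts of the wild-type group and the CD45.1+ sort of the DOCK8-deficient group. The 3 CD45.2+ PC/PB points of Slc3a2 lie at 197 to 241 CPM, above the CD45.1+ points at 66.6 to 99.7, and Ddit4 is low in DZ and PC/PB cells.

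Within the non-plasma classes the order of levels differed between members. Ddit4 was highest in LZtoPrePC/Memory (101 ± 30.9 CPM, n = 3) and E/A/M cells (91.2 ± 29.2, n = 12), intermediate in LZ cells (60.0 ± 21.9, n = 11) and lowest in DZ cells (16.1 ± 5.54, n = 12), where it lay within the spread of the PC/PB value. LZtoPrePC/Memory and E/A/M did not differ beyond their spread. The LZtoPrePC/Memory values came only from CD45.2+ cells of the wild-type group, while the other classes pooled both sorts and both groups. The LZtoPrePC/Memory cells had a median of 5.88% mitochondrial counts. Sesn2 had a like order, from 24.4 ± 11.99 in LZtoPrePC/Memory, a shallow cluster with a median of 1751 UMIs per cell, and 10.9 ± 4.45 in E/A/M to 2.69 ± 1.91 CPM in DZ cells. Ddit3, by contrast, was lowest in DZ cells (9.17 ± 5.19 CPM) and had 24.2 ± 11.8 in E/A/M and 35.5 ± 47.3 in LZ cells, the latter spread being set by DOCK8-deficient mouse 3, without whose CD45.2+ cells LZ had 21.4 ± 5.67 (n = 10) and E/A/M 21.1 ± 4.6 (n = 11). Eprs was higher in DZ (100.4 ± 23.6 CPM) than in E/A/M cells (51.0 ± 14.1), with LZ (87.6 ± 40.3, or 77.2 ± 21.8 without those cells) between them. Atf4 ran from 97.6 ± 25.1 CPM in E/A/M to 152 ± 15.3 in LZtoPrePC/Memory cells, and DZ (131 ± 26.9) and LZ (135 ± 62.0, or 116 ± 13.8 without those cells) did not differ beyond their spread. In CD45.2+ wild-type-group cells alone, with immunoglobulin counts out of the totals, Atf4 had 107 ± 6.18 CPM in E/A/M and 159 ± 15.5 in LZtoPrePC/Memory cells. Slc3a2 stayed between 29.5 ± 9.77 in E/A/M and 48.7 ± 13.7 CPM in LZ cells.

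In the CD45.2+ wild-type-group cells, the finer clusters placed most members' highest levels in PC1. This PC/PB cluster, of 253 cells over both sorts and groups, was led by Derl3, Cox6a2, Sdf2l1, Pdia4 and Hspa5, genes mostly of protein folding in the endoplasmic reticulum. In the CD45.2+ cells of the wild-type group, where PC1 held 227 cells and 1598073 UMIs, Slc3a2 stood at 556 ± 209 CPM (SD, n = 3), against 130 ± 13.7, 259 ± 43.6 and 273 ± 59.2 in the 3 PC2 clusters and 76.7 ± 21.7 in the CyclingPC/PB cluster. Ddit3 reached 150.4 ± 32.0 CPM in PC1, with 80.3 ± 15.5 in the PC2 cluster led by Apoe and Slpi and at most 32.2 ± 3.19 in the other PC/PB clusters. In PC1, Atf4 stood at 292 ± 48.9, Eif4ebp1 at 121 ± 46.2, Asns at 42.2 ± 23.7, Chac1 at 34.3 ± 17.5 and Trib3 at 13.8 ± 8.04 CPM. For all 7 of these members PC1 was the highest cluster of the CD45.2+ wild-type-group cells with at least 30 cells. The CARE-bearing Asns, Chac1 and Trib3 were near 0 in E/A/M cells, at 0.35, 0.07 and 0.31 CPM on average over both sorts.

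The remaining 3 members ranked first in other clusters, Sesn2 and Eprs by small margins over PC1. Ddit4 was highest in EarlyGC2 (119 CPM, 300 UMIs) and Activated/Memory cells (112 CPM, 901 UMIs) of the same mice and sort, and the CD45.1+ cells put the same clusters first and second, at 131 and 103 CPM. Sesn2 was highest in the LZtoPrePC/Memory cluster (19.7 CPM, 8 UMIs), with PC1 next (18.2 CPM, 29 UMIs). Eprs was highest in the mitotic DZ3 cluster (112 CPM, 303 UMIs), with PC1 next (109 CPM, 174 UMIs). Neither Sesn2 nor Eprs was shown to be lower in PC1 than in its first cluster. PC1 held 16 cells of the CD45.1+ wild-type group, too few to be ranked there.

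**Figure D2:**
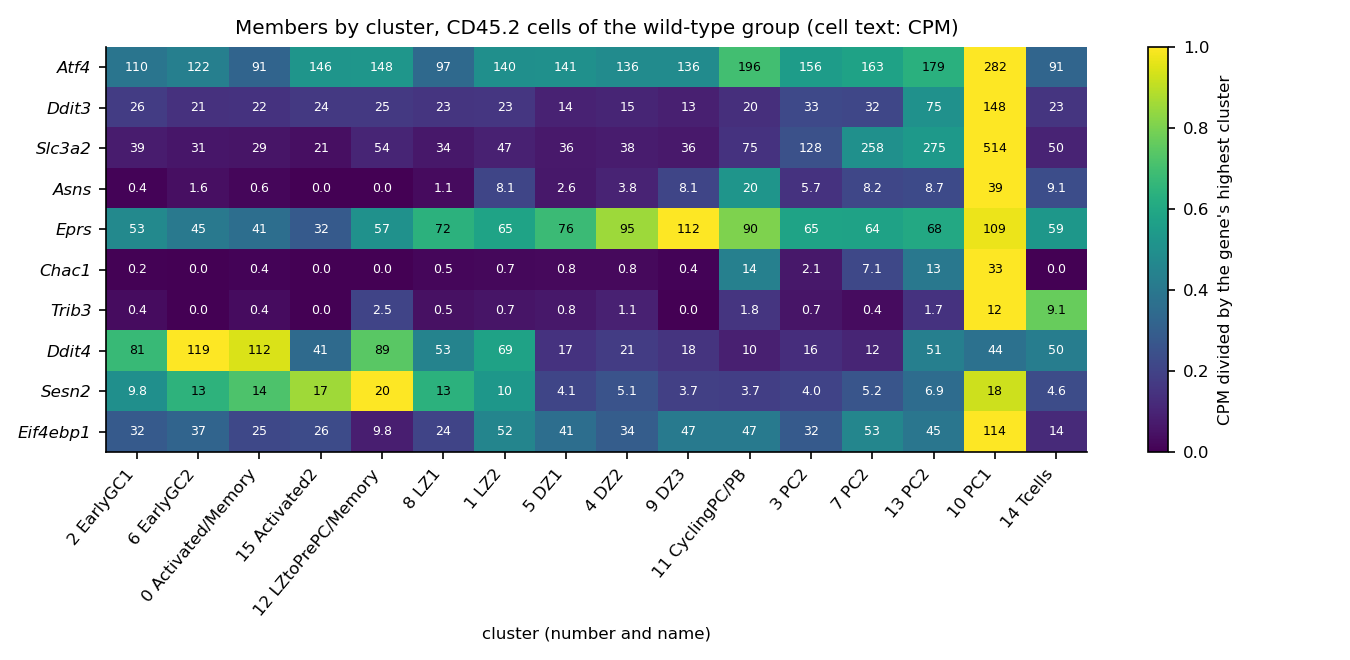
Heat map of the 10 members (rows) in the 16 clusters (columns) of the CD45.2+ cells of the wild-type group, pooled over mice, with the CPM written in each cell and the colour giving it as a share of the gene's highest cluster. PC1 is the highest cluster for 7 members, with 514 CPM of Slc3a2, and Ddit4 is highest in EarlyGC2 at 119 CPM.

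The wider pathway was read from a list of 52 genes in 8 roles (eIF2 kinases, eIF2 and eIF2B subunits, eIF2 phosphatase subunits, bZIP partners, amino acid and one-carbon synthesis, amino acid transport, tRNA charging, ER redox and secreted factors), of which 41 had at least 100 UMIs. Of these 41, 6 were higher and 13 lower in PC/PB than in non-plasma cells in all 9 combinations, against the 8.27% and 55.2% of all genes given above. With immunoglobulin counts out of the totals, 15 were higher and 3 lower, against 13.9% and 31.1%. Pycr1, an enzyme of proline synthesis, had 38.1 ± 10.2 CPM in PC/PB and 0.357 ± 0.552 in non-plasma cells. Ppp1r15a, the inducible subunit that directs dephosphorylation of eIF2, stood at 19.3 ± 4.05 against 7.27 ± 1.37 CPM, and its constitutive counterpart Ppp1r15b at 32.2 ± 6.17 against 47.4 ± 4.42, or 48.3 ± 8.91 against 48.7 ± 4.45 with immunoglobulin counts out of the totals. The tRNA synthetases Nars (183 ± 17.7 against 70.7 ± 5.66 CPM) and Yars (40.5 ± 7.54 against 17.7 ± 4.36) and the oxidase Ero1l (31.7 ± 7.99 against 11.97 ± 2.64) were also higher in all 9.

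Of the eIF2 and eIF2B subunits 5 of 8, and of the eIF2 kinases 3 of 4, were lower in PC/PB cells in all 9 combinations, where 55.2% of all genes were. With immunoglobulin counts out of the totals these were 2 of 8 and 1 of 4. The subunits Eif2b2 (13.96 ± 3.30 against 42.8 ± 4.55 CPM) and Eif2s1 (59.7 ± 11.2 against 121 ± 12.8) were lower in all 9 combinations, as were the kinases Eif2ak4 (6.09 ± 3.73 against 14.5 ± 3.04) and Eif2ak1 (25.5 ± 4.05 against 37.5 ± 3.96). Without immunoglobulin counts in the totals Eif2b2, Eif2s1 and Eif2ak4 were still lower in all 9, and Eif2ak1 was lower in 3 of 9 (38.4 ± 6.35 against 38.5 ± 4.07 CPM). The mitochondrial folate enzyme Mthfd2 (20.3 ± 8.13 against 46.8 ± 7.82 CPM) and the transporter Slc7a1 (15.6 ± 5.49 against 35.1 ± 4.85) were lower in all 9 as well, and in 8 of 9 without immunoglobulin counts. Slc7a5, the light chain that pairs with Slc3a2, was higher in 8 of 9 (8.46 ± 5.17 against 4.20 ± 2.005 CPM), and Atf5, a bZIP factor translated like Atf4, in 6 of 9 (12.4 ± 7.53 against 7.65 ± 2.72). Cebpg, a dimer partner of ATF4, was lower in 7 of 9 (36.4 ± 8.34 against 45.6 ± 4.91 CPM) and, without immunoglobulin counts, higher in 7 of 9 (54.7 ± 12.5 against 46.8 ± 5.08).

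The members did not share 1 pattern over the 47 class, sort and mouse sums with at least 10 cells. Pearson's r of log2(CPM + 10), given as a description since the sums share mice, libraries and depth, was 0.779 between Ddit4 and Sesn2, 0.755 between Asns and Chac1, 0.724 between Slc3a2 and Chac1, and -0.586 between Ddit4 and Eprs. Among 5299 genes with a mean of at least 20 CPM, those most like Ddit4 were Snn (0.93), Il2rg (0.92) and Bhlhe40 (0.92), and those most like Sesn2 were Tyk2 (0.82), Ndst1 (0.79) and Rab24 (0.78). Slc3a2 was most like Derl3 (0.80), Hyou1 (0.80) and Jchain (0.80), and Chac1 like Slc3a2 (0.72), Herpud1 (0.66) and Isg20 (0.58). Atf4 was most like Canx (0.69), Morf4l2 (0.67) and Arfgap1 (0.65), and Eif4ebp1 like Eif1 (0.73), Ahsa1 (0.73) and Cdc26 (0.72). For Eprs the nearest genes were Ddx1 (0.75), Nudt4 (0.73) and Phgdh (0.73), and for Asns Lars (0.69), AA467197 (0.57) and Cebpb (0.57). Ddit3 had Pttg1ip (0.66), 1110008P14Rik (0.60) and Mxd4 (0.56), and Trib3 had AA467197 (0.86), Rnf146 (0.63) and Desi2 (0.59). The sums include the CD45.2+ LZ cells of DOCK8-deficient mouse 3. There Trib3 had 44.3 CPM, Ddit3 177 and Asns 29.5, where their means over the sums were 1.68, 23.7 and 3.64 CPM. No correlation was computed without that mouse, so how far those of these members rest on it was not tested.

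In the PC/PB cells of the wild-type group, the CD45.2+ BCL2.Tg sort held more RNA of 6 members and less of 1 than the CD45.1+ sort of the same 3 mice. Values here are scaled CPM, CPM after scaling by the TMM factors of edgeR, from sums over 369, 648 and 432 CD45.2+ cells and 77, 137 and 307 CD45.1+ cells. In such sums, fewer cells of a kind and less RNA per cell cannot be told apart. Slc3a2 had 239.5, 200 and 194 scaled CPM in the CD45.2+ cells of mice 1 to 3 and 77.9, 105 and 66.8 in their CD45.1+ cells, while the CD45.1+ cells of the DOCK8-deficient group had 93.0, 69.6 and 68.7. Every CD45.2+ value lay above all 6 CD45.1+ values. Slc3a2 rose by 1.24 on the log2 scale (SE 0.12, n = 3 pairs, edgeR quasi-likelihood test with mouse as block, Benjamini-Hochberg adjusted p = 2.1e-07), and was higher in 3 of 3 mice.

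Ddit3, the CHOP gene, had 49.8, 53.4 and 41.6 scaled CPM in CD45.2+ and 24.5, 22.3 and 21.5 in CD45.1+ PC/PB cells of the wild-type group, with 20.9, 7.45 and 25.2 in the CD45.1+ cells of the DOCK8-deficient group. The CD45.2+ values did not overlap the others. The log2 difference was 0.96 (SE 0.15, edgeR quasi-likelihood, Benjamini-Hochberg adjusted p = 9.2e-05). Ddit4 had 23.4, 25.4 and 13.7 scaled CPM against 8.65, 10.4 and 5.37, with 11.6, 12.4 and 11.2 in the DOCK8-deficient group's CD45.1+ cells, again without overlap. It rose by 1.24 (SE 0.23, edgeR adjusted p = 4.5e-04). Asns had 9.65, 9.59 and 17.5 scaled CPM against 2.88, 2.39 and 5.67, with 0, 1.24 and 2.80 in the other CD45.1+ cells. Its difference was 1.60 (SE 0.30, edgeR adjusted p = 4.7e-04), on 24 UMIs in the CD45.1+ cells of the 3 mice.

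Eif4ebp1 rose by 0.43 (SE 0.15, edgeR adjusted p = 0.039) from 43.3, 34.3 and 32.2 to 48.0, 45.9 and 54.8 scaled CPM, the other CD45.1+ cells having 18.6, 22.4 and 28.03. Sesn2 rose by 1.34 (SE 0.47, edgeR adjusted p = 0.047), but its groups overlapped, with 4.98, 5.83 and 7.41 against 5.77, 2.39 and 1.49 scaled CPM. Eprs fell, from 105, 84.4 and 109 in CD45.1+ to 66.0, 70.1 and 82.0 scaled CPM in CD45.2+ cells, a log2 difference of -0.53 (SE 0.11, edgeR adjusted p = 0.0012). The CD45.1+ cells of the DOCK8-deficient group had 114, 94.4 and 81.3, the last of which lies below the highest CD45.2+ value.

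Atf4 itself was not called. It had 183, 172 and 183 scaled CPM in CD45.2+ and 177, 133 and 163 in CD45.1+ cells, a difference of 0.10 with a 95% interval from -0.10 to 0.30 (edgeR adjusted p = 0.51). Chac1 had 11.8, 7.52 and 9.66 against 0, 0.797 and 6.86 scaled CPM, with no overlap, and missed the threshold at a difference of 1.14 (SE 0.42, edgeR adjusted p = 0.055), but was called in 9 of the 16 other settings that tested it, with differences from 0.22 to 3.93. Of its 24 CD45.1+ UMIs, 23 came from mouse 3. Trib3 was counted 29 times in CD45.2+ and 0 times in CD45.1+ PC/PB cells of these mice and, under the filter on low counts used here, was not tested. It was called in 3 of the 4 other settings that tested it, those without a filter and with another hashtag rule or normalization (edgeR adjusted p = 5.8e-04 to 0.018), and not under DESeq2 (adjusted p = 0.16). With 0 UMIs in these CD45.1+ cells, here and under the 3-fold hashtag rule, Trib3 could not have come out lower. Its calls are therefore no support. Set against an assumed floor of 3 counts over the CD45.1+ cells of the group (0.558 CPM), the 2.25 CPM of Trib3 in CD45.2+ cells was 4.04-fold higher. This ratio leaves out counting error and is not a lower bound.

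In all, 9 members were tested in PC/PB cells and 7 were called, 6 higher and 1 lower in CD45.2+. Of the 9120 genes tested, 23.2% were called, 12.1% higher and 11% lower. The median log2 difference was 1.14 over the 9 members tested and 0.03 over all genes. Counted without a test over genes with a mean of at least 1 CPM, 7 of the 10 members had every CD45.2+ value above every CD45.1+ value of the wild-type group, where 22.5% of 10261 genes did, and 1 had every value below, where 9.55% did. Trib3, 1 of the 7, had 0 UMIs in those CD45.1+ cells. It met the floor of 1 CPM only through its CD45.2+ values and could not have come out lower, so its place in this count is no support. Against all 6 CD45.1+ values it did not meet the floor. Against all 6 CD45.1+ values, 6 of the 9 members measured were higher throughout, where 12.8% of 10189 genes were, and 0 were lower throughout, where 5.11% were.

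**Figure D3:**
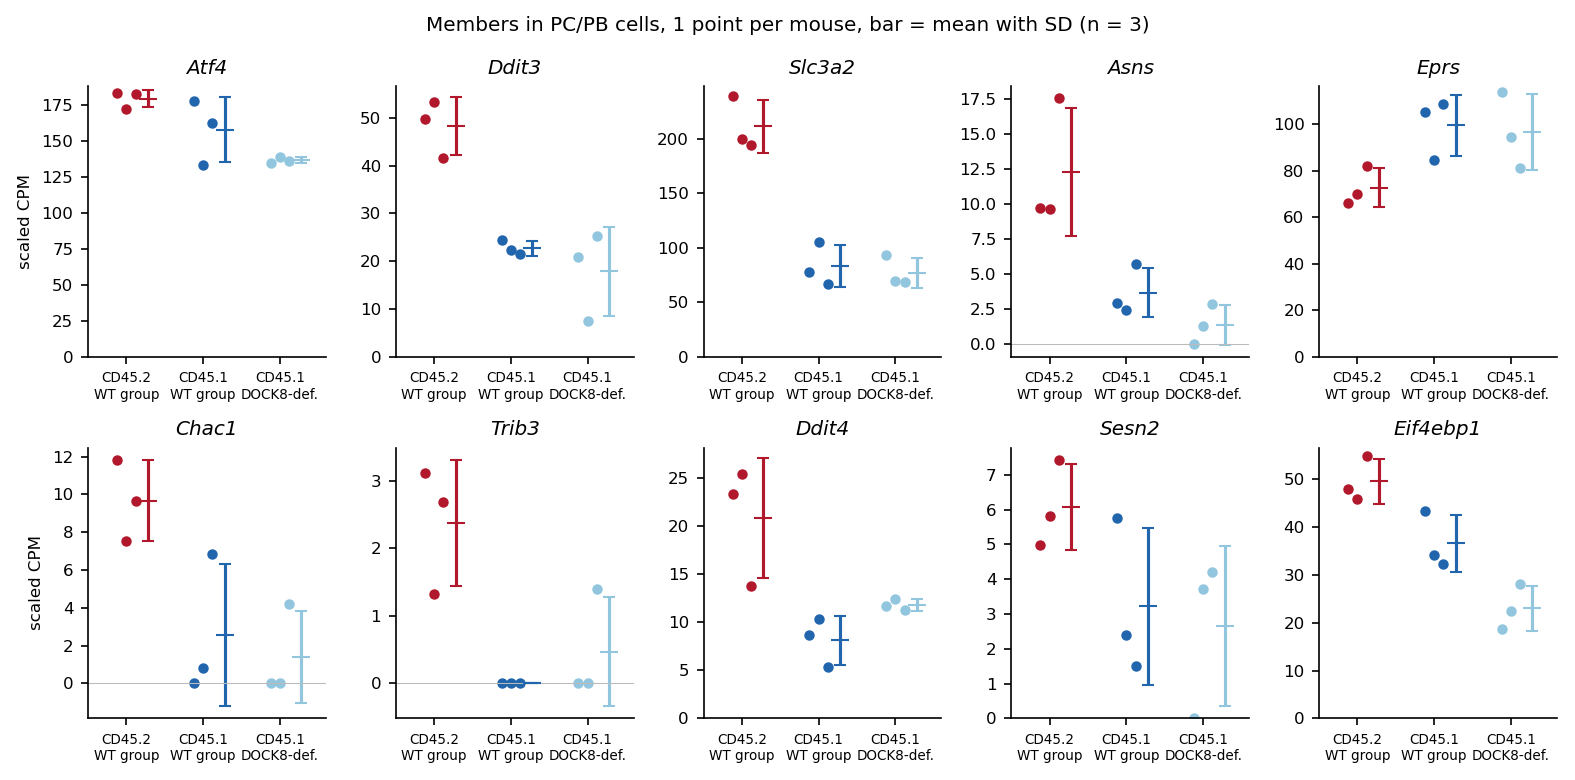
Scaled CPM of each member in PC/PB cells, 1 point per mouse, for the CD45.2+ and CD45.1+ sorts of the wild-type group and the CD45.1+ sort of the DOCK8-deficient group, with the mean and SD of 3 mice beside the points; an SD bar can run below 0. For Slc3a2, Ddit3, Ddit4, Eif4ebp1, Asns and Chac1 the 3 CD45.2+ points lie above all 6 CD45.1+ points, and for Atf4 they do not.

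The makeup of the PC/PB class moved with the sort. Pooled over mice of the wild-type group, PC1, the cluster with the highest levels of 7 members, made up 15.7% of the CD45.2+ PC/PB cells (227 of 1449). It made up 3.07% of the CD45.1+ ones (16 of 521), of which mouse 3 gave 307. The pooled CyclingPC/PB shares were 7.04% and 16.9%. By mouse, PC1 made up 17.62%, 17.44% and 11.34% in CD45.2+ and 7.792%, 5.839% and 0.6515% in CD45.1+ cells, without overlap. The CyclingPC/PB shares overlapped, at 3.252%, 4.938% and 13.43% in CD45.2+ and 12.99%, 11.68% and 20.2% in CD45.1+ cells. In each mouse the CyclingPC/PB share was higher in the CD45.1+ cells. In the PC2 clusters alone, a comparison added after the data were seen, 3 of 9 members were called: Slc3a2 with 0.92 (edgeR adjusted p = 6.6e-06), Ddit4 with 0.93 (adjusted p = 0.015) and Eprs with -0.59 (adjusted p = 5.7e-04). There, 20.9% of 8446 genes were called, 10.3% higher and 10.6% lower, and Ddit3 had 0.43 (edgeR adjusted p = 0.11) and Asns 0.76 (adjusted p = 0.24). In the CyclingPC/PB cluster alone 0 of 4 members passed the edgeR threshold, where 98 of 4003 genes did. At an unadjusted p under 0.05 there were 2 members, Slc3a2 at 0.70 (edgeR adjusted p = 0.17) and Eprs at -0.49 (adjusted p = 0.22).

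RNA of B cell markers moved with the sort as well. In the wild-type group, the 4 genes of the B cell list stood in PC/PB at the following percent of their non-plasma level in CD45.1+ and CD45.2+ cells: Ms4a1 3.15% and 18.5%, Cd22 1.44% and 20.4%, Cd79b 27.1% and 42.4%, and Cd79a 57.2% and 111%. Their summed level was 984.6 to 2389 CPM in the 6 CD45.1+ and 2270.0 to 4666 CPM in the 3 CD45.2+ PC/PB sums. On the same measure Ddit4 stood at 13.5% and 33.2% and Sesn2 at 33.3% and 65.5%, both being lower in PC/PB than in non-plasma cells, while Slc3a2 stood at 216% and 596%. Summed T cell, NK, myeloid and erythroid lists were at most 16.5 CPM in any PC/PB sum. Their part in the result was not tested, except that the PC/PB cells without a UMI of Ms4a1 or Cd22 (271 of 1449 and 350 of 521) could be compared, an alternative whose rule was set after the data and a stricter rule's values were seen. In those, 4 of 7 members tested were called, all higher in CD45.2+, where 13.5% of 5536 genes were, 6.79% higher and 6.72% lower. Slc3a2 differed by 1.68 (SE 0.15, edgeR adjusted p = 4.7e-20), Ddit3 by 1.04 (adjusted p = 0.0019), Chac1 by 2.09 (adjusted p = 0.0069) and Atf4, not called in all PC/PB cells, by 0.50 (adjusted p = 0.0065). Ddit4 had 1.11 (SE 0.49, edgeR adjusted p = 0.12) and Eprs -0.37 (SE 0.18, adjusted p = 0.17) there. The calls in such cells depended on which markers defined them, a stricter rule calling fewer.

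Over 17 other settings, among them DESeq2, each mouse left out and no mouse block, Slc3a2 was called in 16 and Eprs in 15, the exceptions being the CyclingPC/PB cluster and, for Eprs, the cells without an Ms4a1 or Cd22 UMI. Ddit4 was called in 15 of the 16 settings that tested it, at 0.93 to 1.42, the exception being those cells. Ddit3 was called in 15 of 16 and Asns in 13 of 15, Asns losing its call in the PC2 clusters and under DESeq2 (adjusted p = 0.069). Sesn2 was called in 8 of 15 and Eif4ebp1 in 8 of 17. Sesn2 and Eif4ebp1 lost theirs under DESeq2, without the block and without mouse 2 or mouse 3, among other settings: without mouse 3, Sesn2 had 0.49 (edgeR adjusted p = 0.66) and Eif4ebp1 0.21 (edgeR adjusted p = 0.54). Without that mouse Chac1 was called, at 3.93 (edgeR adjusted p = 1.4e-04).

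**Figure D4:**
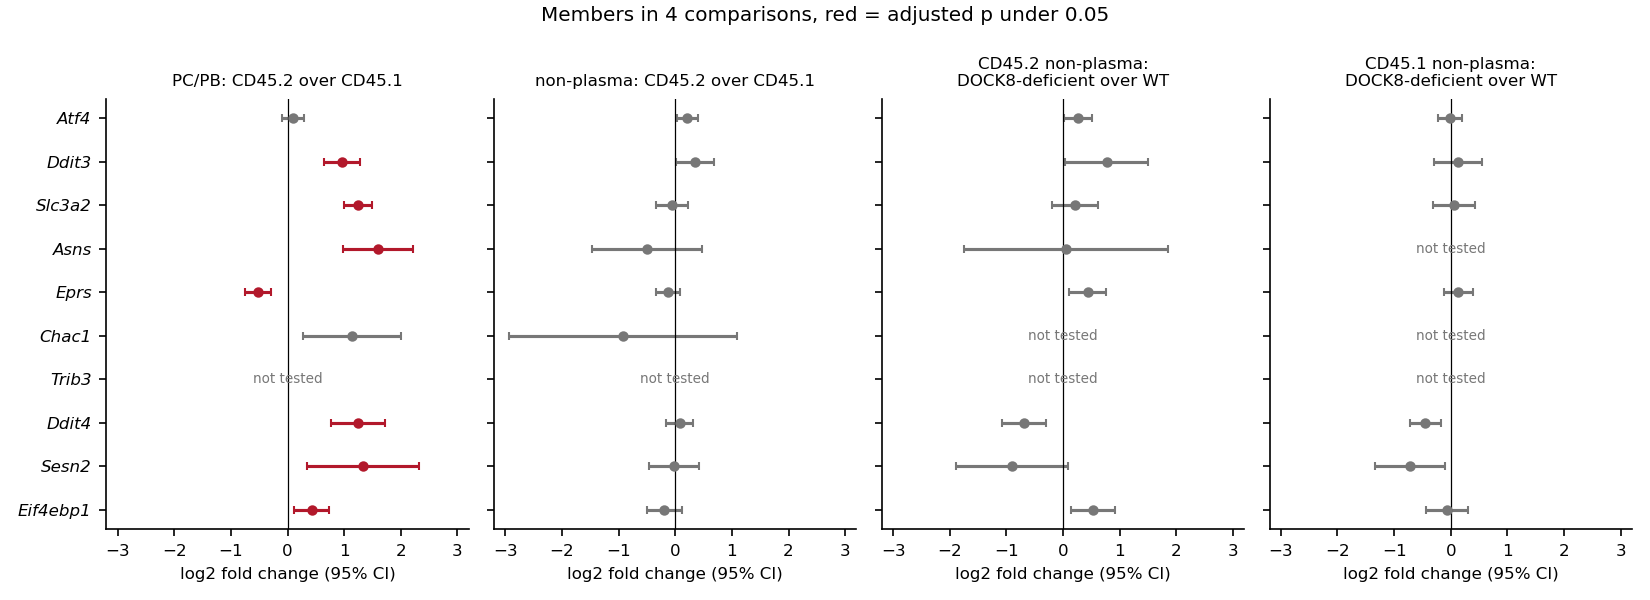
Log2 difference of each member with its 95% interval (horizontal axis) in 4 comparisons, 1 per panel: CD45.2+ over CD45.1+ in PC/PB and in non-plasma cells of the wild-type group, and DOCK8-deficient over wild-type group in CD45.2+ and in CD45.1+ non-plasma cells. Red marks an adjusted p under 0.05, which 7 members had in PC/PB cells and 0 in the other panels.

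Of the 52 pathway genes, 42 were tested in the same PC/PB comparison, of which 9 rose and 3 fell in CD45.2+ cells, against 12.1% and 11% of all genes. This balance depended on the setting: 7 rose and 7 fell of 41 in the PC2 clusters alone, 9 and 10 of 43 under the 3-fold hashtag rule, and 8 and 8 of 43 with hashtag values normalized over each cell. The largest changes were those of Atf5 (1.67, edgeR adjusted p = 5.4e-05), Slc7a5 (1.30, adjusted p = 0.0011), Mthfd2 (0.92, adjusted p = 8.0e-04), Cebpb (0.90, adjusted p = 8.4e-04), a bZIP partner of ATF4, and the threonyl-tRNA synthetase Tars (-0.62, adjusted p = 7.5e-04). Slc7a5 had 15.3, 13.7 and 16.2 scaled CPM in CD45.2+ and 4.33, 3.98 and 7.16 in CD45.1+ cells, so both chains of the amino acid transporter were higher in the CD45.2+ sort. Atf5 had 19.9, 23.1 and 21.1 against 10.1, 7.17 and 4.77 scaled CPM. Neither gene's groups overlapped.

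The Dock8 cpm/cpm CD45.2+ cells of the DOCK8-deficient group held 13 PC/PB cells in all (97453 UMIs), too few for a comparison. Pooled, they had 21 UMIs of Slc3a2, or 215.5 CPM with an exact Poisson 95% interval of 133 to 329, and 19 UMIs of Atf4, or 195 CPM (117 to 304.5), intervals that cover counting error only. Ddit4, Sesn2, Trib3 and Chac1 had 0 UMIs, for which the exact interval reaches 37.9 CPM and a floor of 3 counts 30.8 CPM. With hashtags assigned where the highest had at least 3 times the next, the mice had 9, 19 and 59 such cells and 183, 227 and 361 CPM of Slc3a2. In these cells Ddit3 had 0, 52.4 and 51.9 CPM. Ddit4 had 2, 2 and 6 UMIs, Sesn2 2, 0 and 4, Chac1 0, 0 and 3, and Trib3 0, 0 and 1. The counts of 0 above thus do not show these members to be absent.

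In non-plasma cells of the wild-type group, 0 of 9 members tested differed between the sorts by the edgeR test, where 3.17% of 10715 genes were called. At an unadjusted p under 0.05 there were 2, Atf4 at 0.21 (SE 0.08, adjusted p = 0.19) and Ddit3 at 0.35 (SE 0.15, adjusted p = 0.24), and DESeq2 called 0. Of all genes, 2058 (19.2%) had an unadjusted p under 0.05. Over all non-plasma cells Atf4 had 120, 126 and 126 scaled CPM in CD45.2+ and 103, 106 and 107 in CD45.1+ cells, without overlap, though the share of all genes without overlap was not counted in non-plasma cells. In E/A/M cells alone, added after the data were seen, 0 of 7 members were called by edgeR, 1 at an unadjusted p under 0.05, where 4.31% of genes were called. In LZ and DZ cells alone Atf4 passed the threshold at 0.22 (edgeR adjusted p = 0.047). It was 1 of 8 members tested, where 1395 of 9903 genes were called. In DZ cells alone, added after the data were seen, Atf4 had 0.31 (edgeR adjusted p = 0.042), again 1 of 8, where 579 of 9479 genes were called. Slc3a2, which differed by 1.24 in PC/PB, had -0.05 here with a 95% interval from -0.33 to 0.23, and 35.6, 38.1 and 36.7 against 42.5, 42.0 and 31.0 scaled CPM. Whether the sorts' difference in PC/PB and in non-plasma cells was itself different was not tested.

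Dock8 RNA, read first in the genotype comparison, was 98.7, 106 and 91.7 scaled CPM in the CD45.2+ non-plasma cells of the DOCK8-deficient group and 117, 121 and 109 in those of the wild-type group, and an ENU allele need not remove the transcript, so that it does not check the labels. Between these genotypes 0 of 8 members tested were called by edgeR, where 0.146% of 10239 genes were, and 5 had an unadjusted p under 0.05, as did 800 of all genes (7.81%). DESeq2 gave no member an adjusted p. Ddit4 had 33.8, 41.8 and 44.3 scaled CPM in Dock8 cpm/cpm and 69.9, 65.2 and 60.4 in Dock8 wt/wt cells, without overlap. Its difference was -0.68 (SE 0.19, edgeR adjusted p = 0.17). For this comparison the share of all genes without overlap was not counted.

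Sesn2, the other mTORC1 inhibitor, had 2.598, 3.21 and 7.64 scaled CPM against 9.46, 9.58 and 9.95, also without overlap, with a difference of -0.90 (SE 0.48, edgeR adjusted p = 0.68). Eif4ebp1 lay the other way, at 39.0, 48.2 and 59.6 against 35.2, 35.3 and 35.2 scaled CPM (0.53, SE 0.19, edgeR adjusted p = 0.41). Atf4 had 133, 138 and 166.5 against 120, 126 and 126 scaled CPM (0.26, SE 0.12, edgeR adjusted p = 0.61). Eprs had 0.43 (SE 0.16, edgeR adjusted p = 0.45) and Slc3a2 0.21 with a 95% interval from -0.19 to 0.62, the groups of both overlapping. Ddit3 rested on 1 mouse, with 12.99, 6.43 and 62.6 scaled CPM against 20.3, 20.1 and 20.9. In that mouse's 22 LZ cells, Ddit3 had 24 UMIs (177 CPM) and Trib3 6 UMIs in 3 cells (44.3 CPM). Without that mouse the median difference of the 8 members tested was -0.42, and 0 were called.

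The Ddit4 values of the groups did not overlap in the CD45.1+ cells either, which were Dock8 wt/wt in both groups: 38.8, 45.4 and 49.8 scaled CPM beside Dock8 cpm/cpm cells and 54.9, 64.2 and 62.3 beside Dock8 wt/wt cells. The difference of -0.45 (SE 0.13) did not pass in the edgeR quasi-likelihood test (adjusted p = 0.50). The share of all genes without overlap was not counted here, so the lack of overlap is a description only. In this comparison 0 of 7 members and 0 of 8672 genes (0%) were called, with 2 members and 606 genes at an unadjusted p under 0.05, and DESeq2 called 0 genes. The second of the 2 members was Sesn2, with 5.23, 5.04 and 7.26 against 8.85, 11.1 and 9.35 scaled CPM (-0.72, SE 0.30, edgeR adjusted p = 0.69). With the mouse as block, the difference of Ddit4 between the groups was not shown to differ between the sorts (-0.26, SE 0.24, edgeR adjusted p = 0.91), nor was that of any of the 8 members tested (0 called, 1 at an unadjusted p under 0.05, against 0.0212% of 9423 genes called).

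E/A/M cells, which held the most Ddit4, made up 15.5% to 24.2% of CD45.1+ non-plasma cells in the DOCK8-deficient group and 21.7% to 43.4% in the wild-type group, and 32.1% to 52.3% and 47.3% to 63.8% of CD45.2+ ones. Their part in the Ddit4 values was not tested beyond taking classes apart. Within E/A/M cells, added after the data were seen, Ddit4 had 46.2, 47.2 and 47.1 CPM in CD45.2+ Dock8 cpm/cpm and 102.5, 99.7 and 100.5 in Dock8 wt/wt cells, on 5, 5 and 12 UMIs against 664, 536 and 435. It fell by 1.30 on the log2 scale (SE 0.27, edgeR adjusted p = 0.025), the 1 member called of 7 where 0.286% of 8743 genes were. In the CD45.1+ E/A/M cells the difference was -0.08 (edgeR adjusted p = 0.997), with no gene called of 4543 and 173 at an unadjusted p under 0.05. The fit of genotype by sort in E/A/M cells gave -1.14 (edgeR adjusted p = 0.11), with 0 of 6 members called where 1.12% of 5783 genes were, 1 member at an unadjusted p under 0.05, so the sorts were not shown to differ. In CD45.2+ LZ and DZ cells the Ddit4 difference was 0.35 (edgeR adjusted p = 0.91). The summed myeloid markers lay at 13.9 to 252 CPM in the CD45.1+ E/A/M sums of the DOCK8-deficient group and 50.3 to 328.5 in those of the wild-type group, and at 0 to 9.44 and 10.2 to 24.9 CPM in the CD45.2+ ones, and their part in the E/A/M results was not tested.

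The E/A/M cells of the genotypes fell into different clusters. EarlyGC1 held 63.0% to 88.9% of the CD45.2+ Dock8 cpm/cpm and 16.5% to 45.5% of the Dock8 wt/wt E/A/M cells. Pooled over mice, Ddit4 in EarlyGC1 was 49.2 CPM in Dock8 cpm/cpm cells (15 UMIs, exact Poisson 95% interval 27.6 to 81.2) and 80.6 CPM in Dock8 wt/wt cells (412 UMIs, 73.0 to 88.7). These intervals cover counting error only, and no test was made within this cluster. Activated/Memory cells gave 5 UMIs (50.7 CPM, 16.5 to 118) against 901 UMIs (112 CPM, 105 to 120).

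**Figure D5:**
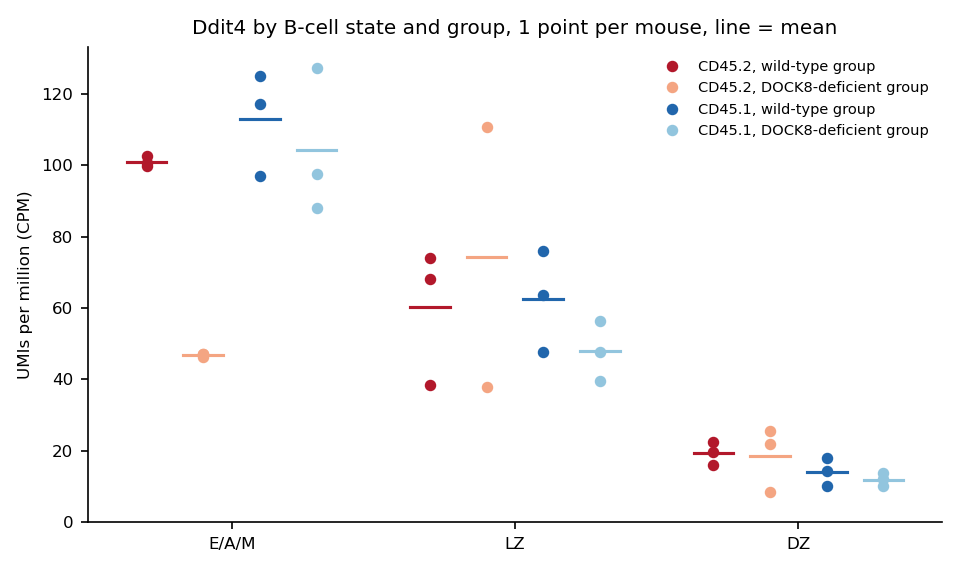
Ddit4 level (CPM, linear axis from 0) in E/A/M, LZ and DZ cells, 1 point per mouse with at least 10 cells of the class and a line at the mean, by sort and group; 1 CD45.2+ mouse of the DOCK8-deficient group had too few LZ cells. In E/A/M cells the 3 CD45.2+ DOCK8-deficient points lie at 46.2 to 47.2 CPM and the wild-type-group points at 99.7 to 102.5, while the CD45.1+ points of the groups overlap.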

How the data were processed

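Single-cell mRNA and hashtag counts (UMIs per gene or antibody tag and cell barcode) were deposited by the authors as 1 matrix per library, made with Cell Ranger 5.0.1 on mm10 according to the submitters' processing notes. Of 24241 CD45.2+ and 5232 CD45.1+ mRNA barcodes, cells were assigned to mice with HTODemux (quantile 0.99) in Seurat 5.3.0, and barcodes it called doublets of different mice were removed. Cells with under 10% mitochondrial counts and more than 100 and fewer than 5500 genes were kept, which gave fewer CD45.2+ and more CD45.1+ cells than the study states. Scrublet marked 4 of 6488 and 5 of 3204 kept cells, too few to rely on, and no further doublets were removed. The 2 sorts shared 38 barcodes, of which 6 were kept in both. Counts were normalized by SCTransform and clustered on 30 principal components at resolution 0.9, without the members and 8 sex-linked genes. Clusters were named where at least 3 of their top 50 genes were on a marker list of the study, which chose those lists on these libraries, so the names are rebuilt and not independent.

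Counts were summed per mouse, sort and class (10 cells or more) and compared by quasi-likelihood F-tests in edgeR 4.0.16 (R 4.3.3, TMM factors, filterByExpr, two-sided, Benjamini-Hochberg adjustment over all genes tested, called below 0.05), with mouse as block between sorts. The pairing comes from both sorts of 1 hashtagged mouse. Deviations of same-numbered sums correlated at 0.021, 0.163 and 0.080 in non-plasma and at 0.056, 0.137 and 0.339 in PC/PB cells. The highest correlations with another mouse's sum were 0.045, -0.032 and 0.010 in non-plasma and 0.145, 0.059 and -0.086 in PC/PB cells. For mouse 1 these exceeded its own in both, so the correlations do not check its pairing. Alternatives were DESeq2 1.42.0, other factors, filters, hashtag rules, cell filters, doublet removal, immunoglobulin counts removed, other clusterings, single classes or clusters, no block and each mouse left out. Mice were the replicates, with 3 per group, and p-values measure the spread between them. Intervals on pooled counts cover counting error only. The scripts were tested on simulated counts: of genes changed 2-fold, 71.4% were called in the PC/PB sort comparison (8967 genes) and 58.2% in the CD45.2+ genotype comparison (10079 genes), and of genes changed 4-fold, 94.8% and 84.8%. The simulation held no effect of mouse, and fewer genes were changed in it than were called in the PC/PB sort comparison. These shares check the scripts and are not the share recovered in these data.

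A marker of the B cell list is not reported here; the list and the rule for PC/PB cells without B cell marker UMIs were recomputed without it after values were seen, which kept more cells and raised the number of calls. The members and lists were chosen with earlier results of these data known. Named were all 10 members, Dock8, the up to 5 called pathway genes with the largest change per comparison, the 2 genes of each pathway role with the largest ratio between PC/PB and non-plasma cells among those with at least 100 UMIs, and the 3 genes most like each member. Positions are from GENCODE vM21 on GRCm38.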

Additional observations from a re-analysis of the deposited data

How the results depend on the processing

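No called value of a member changed sign under any alternative run. Without the replicate block, 5 members and 1455 genes were called between sorts in PC/PB cells (7 and 2113 with it), 0 members in non-plasma cells, and 0 genes in the genotype by sort comparison (2 with it); the block changed no other call of a member than those of Sesn2 and Eif4ebp1. In PC/PB cells, 9 of 10 members tested were called under the 3-fold rule (3098 of 9821 genes) and with no filter (2173 of 16017 genes). Per-cell hashtag normalization called 8 of 10 (2402 of 9581 genes). Trib3 was among the members called in each of these. The stricter cell filter (2126 of 9108 genes), doublet removal (1864 of 8883) and immunoglobulin removal (2138 of 9152) called 8 of 9 each. RLE factors (2099 of 9120 genes) and the cells outside the CyclingPC/PB cluster (2006 of 8826) called 6 of 9 each. DESeq2 called 4 of 10 members and 827 of 10118 genes, and the PC2 clusters gave 3 of 9 members and 1767 of 8446 genes. The CyclingPC/PB cluster gave 0 of 4 members and 98 of 4003 genes. Cells without an Ms4a1 or Cd22 UMI gave 4 of 7 members and 748 of 5536 genes. The last 2 settings had fewer cells and genes tested. Leaving out each mouse gave 5 to 7 members and 1525 to 2027 genes. For the CD45.2+ genotype comparison (0 members, 15 genes), no filter gave 1 member (Ddit4) and 132 genes, E/A/M cells 1 and 25, DESeq2 105 genes, RLE factors 9, the 3-fold hashtag rule 6, LZ and DZ cells 1, and each mouse left out 2 to 42. For the CD45.1+ group comparison (0 genes), no filter gave 55 and leave-one-out fits 0 to 9. Between sorts in non-plasma cells (0 members, 340 genes), LZ and DZ cells gave 1 member and 1395 genes, DZ cells 1 and 579, LZ cells 674 genes, DESeq2 189, no filter 812, the 3-fold rule 192, and each mouse left out 0 to 1 members and 24 to 1445 genes. For genotype by sort (2 genes), DESeq2 gave 1, no filter 47, the 3-fold rule 0, immunoglobulin counts removed 1, LZ and DZ cells 1, E/A/M cells 65, and each mouse left out 1 to 35. Across states, 2 members (Ddit4 and Sesn2) were lower in PC/PB in every combination, against 1 (Ddit4) with immunoglobulin counts removed, 1 under the 3-fold rule, 1 under the stricter cell filter and 1 thinned to 2000 UMIs. The number higher in every combination (2) ran from 2 to 3. Beyond what is stated, the cause was not tested. Depth limits Trib3, Chac1 and Asns in CD45.1+ cells and every member in the CD45.2+ DOCK8-deficient cells.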
